A study of Mus musculus with 10 samples.

Results

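The genes examined were 10 markers of testis macrophages (*Csf1r*, *Adgre1*, *Cd68*, *Mrc1*, *Lyve1*, *Cx3cr1*, *C1qa*, *C1qb*, *C1qc* and *Ptprc*), taken by symbol from the 54232 genes of a count table of bulk RNA-seq. All 10 were found in the table, and all 10 passed the filter on low counts that left 20043 genes for testing. The libraries came from testes of mice labelled B6D2F1 at postnatal day 4 (P4), 5 control (labelled *Dis3* WT) and 5 *Dis3* cKO, each library from the pooled testes of a different mouse, with siblings of the same litters as controls. In the cKO mice, *Ddx4*-Cre, which is active in germ cells, deletes a floxed allele of *Dis3*, the gene of an RNA-degrading ribonuclease, and the other allele is already deleted in every cell. Macrophages are therefore no target of the Cre in this model, although in cKO mice they carry 1 intact allele. The question these genes address is how the macrophages of the testis appear in the RNA of the whole organ when *Dis3* is lost from its germ cells.

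Macrophages are the most common immune cells of the testis. Those of the interstitium lie beside Leydig cells and blood vessels, and others lie on the surface of the seminiferous tubules. They derive largely from precursors of fetal life, depend on signals through the colony stimulating factor 1 receptor, and take up dead cells and debris. The complement component C1q, which macrophages secrete, is built from the products of *C1qa*, *C1qb* and *C1qc* and tags material for uptake.

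Each library held between 28538849 and 41104912 counts assigned to genes. *Dis3* was at 4116 to 5161 normalized counts in control and at 1362 to 1709 in cKO libraries, a log2 fold change of -1.62 ± 0.09 (SE, edgeR adjusted p = 3.78e-07). Control replicates 1 to 3 stood apart from control replicates 4 and 5, and cKO replicates 2 and 3 from cKO replicates 4 and 5. The cKO replicate 1 stood apart from both, with a chi-square per degree of freedom of 19.2 and 23.3 against cKO replicates 2 and 3, which had 4.44 between them, and of 25.4 and 28.01 against cKO replicates 4 and 5. It is counted below with replicates 1 to 3 by its number. Without it no marker was called, *Csf1r* had a log2 fold change of 0.15 and *C1qa* one of -0.07. After removal of the group means, each control library was correlated with each cKO library. Pairs from the same cluster (replicates 1 to 3, or 4 and 5) had a mean correlation of 0.115, and pairs from different clusters one of -0.12. The labels name no batch for this split, so values within each cluster are given beside the pooled ones. The labelled tissue was checked by 12 Sertoli cell markers, which summed to 127456 to 135314 normalized counts in control and 134154 to 171683 in cKO. Of 11 tested germ cell markers, 6 were past the threshold and lower in cKO, where 3.48% of all genes were, and none was higher. A bulk library cannot tell fewer cells of a type from less RNA per cell, and this holds for every value below.

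Sequences upstream of the markers are shown because the ETS factor PU.1, the product of *Spi1*, is a main regulator of macrophage genes and binds a purine-rich box. The letters GAGGAA were searched on both strands, in any position, in RefSeq windows of 250 bases before to 50 bases after each start (GRCm38.p6). They occurred in 28.3% of all 32851 windows. Windows were found for 6 of the 10 markers, with 2 for *Ptprc*, and the letters were in 5 of these 7 windows, those of *Mrc1*, *C1qb*, *C1qc*, *Cd68* and 1 of *Ptprc*. *Csf1r*, *Adgre1*, *Lyve1* and *C1qa* had no entry. The stretches shown lie upstream of the counted exons, in no exon of their gene, and are written 5′ to 3′ on the gene's strand with the box, or its reverse complement, in capitals. They are *Mrc1* at chr2:14229192-14229391 (plus strand, 3 boxes), *C1qb* at chr4:136886201-136886400 (minus strand, 1 box), *C1qc* at chr4:136893066-136893164 (minus strand, 1 box) and *Cd68* at chr11:69666171-69666370 (minus strand, no box in these 200 bases). A match is only a match of letters and no evidence of binding.
Mrc1: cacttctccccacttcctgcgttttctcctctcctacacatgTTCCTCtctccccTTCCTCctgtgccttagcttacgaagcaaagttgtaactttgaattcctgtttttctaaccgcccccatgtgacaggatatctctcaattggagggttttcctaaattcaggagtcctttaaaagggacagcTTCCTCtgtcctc
C1qb: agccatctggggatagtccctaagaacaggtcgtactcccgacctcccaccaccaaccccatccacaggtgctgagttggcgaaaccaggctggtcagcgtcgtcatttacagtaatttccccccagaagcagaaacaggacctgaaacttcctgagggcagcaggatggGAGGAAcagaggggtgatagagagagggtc
C1qc: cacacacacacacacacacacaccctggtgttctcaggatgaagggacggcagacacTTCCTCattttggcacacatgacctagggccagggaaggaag
Cd68: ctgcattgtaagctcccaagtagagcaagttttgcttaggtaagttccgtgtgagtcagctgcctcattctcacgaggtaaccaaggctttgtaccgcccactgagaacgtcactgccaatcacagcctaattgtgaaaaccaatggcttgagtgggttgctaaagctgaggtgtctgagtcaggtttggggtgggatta

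Levels of the markers can be compared only per length, here as normalized counts per kilobase of exon in control libraries. The length is that of all annotated exons of a gene, not of the transcript made in testis, and the order depends on it. *Cd68*, which encodes a lysosomal glycoprotein of phagocytes, was at the top with 389 ± 40.6 (SD, n = 5), followed by *C1qb* with 344 ± 25.5 and *C1qa* with 289 ± 54.7. *Mrc1* (146 ± 13.4) and *Lyve1* (146 ± 66.5) came next, with a spread of *Lyve1* that no other marker had. Below them lay *C1qc* (116 ± 20.8), *Cx3cr1* (109 ± 9.12) and *Csf1r* (105 ± 8.59), then *Adgre1* with 59.5 ± 5.13. *Ptprc*, the pan-leukocyte antigen CD45, was last with 5.78 ± 1.51 over an exon length of 18313 bases. Between neighbours in this order, the ranges of the control libraries were apart only from *C1qa* to *Mrc1*, from *Csf1r* to *Adgre1* and from *Adgre1* to *Ptprc*. The other neighbours overlapped and are not ordered beyond their spread. Together the 10 markers made up 0.0106% to 0.0147% of the gene counts of a library.

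**Figure D1:**
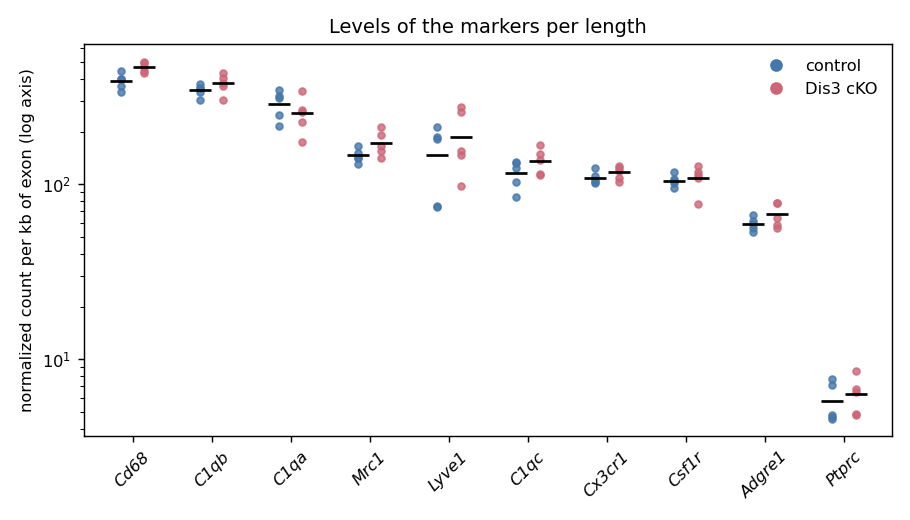
Normalized counts per kilobase of exon (log axis) of the 10 macrophage markers, 1 point per library, with the mean of the 5 control and the 5 *Dis3* cKO libraries as a bar. *Cd68* lies highest and *Ptprc* lowest in both groups, and the groups overlap for every marker.

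None of the 10 markers was past the threshold (adjusted p under 0.05) between *Dis3* cKO and control in edgeR's quasi-likelihood test, against 7.90% of all tested genes. DESeq2 called none either, against 10.5% of the genes in its test. At an unadjusted p under 0.05, *Cd68* and *Mrc1* were higher in cKO and no marker was lower, where 11.8% of all genes were higher. The log2 fold change was above 0 for 9 of the 10, with a median of 0.15. Over all tested genes it was above 0 for 9628 of 20043, with a median of -0.01. Some other cell types had similar shares above 0, with 11 of 12 blood endothelial, 10 of 12 Sertoli and 11 of 12 stromal genes. All 6 lymphatic genes, *Lyve1* among them, were above 0. Shares were lower for myoid (7 of 10), Leydig (5 of 8), erythroid (4 of 7) and lymphocyte and dendritic cell genes (7 of 12). Among monocyte, neutrophil and mast cell genes, 1 of 12 was above 0. Of 38 tested macrophage genes outside the 10 markers 17 were above 0, and of 11 germ cell genes 2 were. The groups overlapped for all 10 markers, and 8.90% of all genes had groups that did not. Missing the threshold does not show that the markers were equal, and the 95% intervals below give the range that the libraries allow. Summed over the 10 genes, control libraries held 3784 to 4372 normalized counts and cKO libraries 3723 to 5205.

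**Figure D2:**
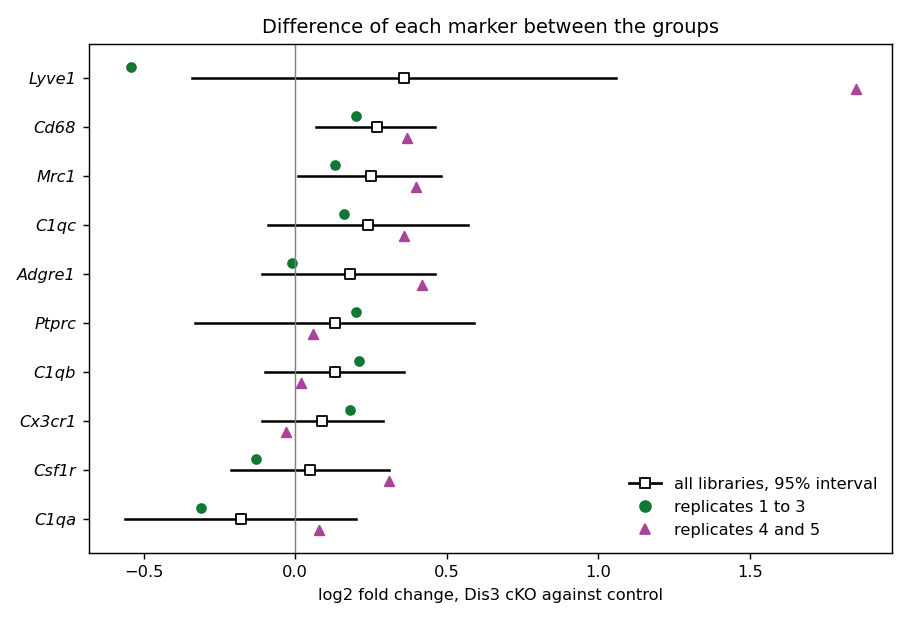
Log2 fold change of each marker, *Dis3* cKO against control, from edgeR: squares with 95% intervals for all 10 libraries, round points for replicates 1 to 3, triangles where only replicates 4 and 5 entered. The intervals of *Cd68* (0.07 to 0.46) and *Mrc1* (0.01 to 0.48) lie above 0, and the clusters stand farthest apart for *Lyve1* (-0.54 and 1.85).

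Of the receptors and surface markers that define the lineage, *Csf1r* (ENSMUSG00000024621.15, chr18:61105572-61132149, GRCm38) encodes the receptor for the growth factors CSF1 and IL-34. Its normalized counts were 494, 520.3, 577, 463 and 507 in control replicates 1 to 5 and 375, 551, 528, 576 and 619 in cKO replicates 1 to 5. The cKO group held both the lowest library, replicate 1, and the highest, replicate 5, and spanned the whole control range. The groups differed by 0.05 ± 0.12 on the log2 scale (SE, 95% interval -0.21 to 0.31, adjusted p = 0.856). It was -0.13 in replicates 1 to 3 and 0.31 in replicates 4 and 5, and -0.01 without cKO replicate 5.

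*Adgre1* (ENSMUSG00000004730.14, chr17:57358686-57483529) encodes F4/80, the adhesion receptor by which mouse macrophages are commonly stained. It was counted at 217, 173, 192, 199 and 183 in control and at 191, 182, 207, 255 and 255 in cKO libraries. The cKO replicates 4 and 5 were above every control library, and the other cKO libraries lay within the control range. The difference was 0.18 ± 0.13 on the log2 scale (95% interval -0.11 to 0.46, adjusted p = 0.47), with -0.01 in replicates 1 to 3 and 0.42 in replicates 4 and 5.

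*Cx3cr1* (ENSMUSG00000052336.7, chr9:119901616-120069879) encodes the receptor for fractalkine. Control libraries were at 457, 465, 558, 478 and 504 normalized counts and cKO libraries at 538, 576, 559, 464 and 491. Only cKO replicates 2 and 3 lay above the control range, and the other cKO libraries were inside it. The log2 fold change of 0.09 ± 0.09 had the narrowest interval but one of the 10 markers (-0.11 to 0.29, adjusted p = 0.594), and its sign turned in replicates 4 and 5 (-0.03). Its ligand *Cx3cl1* differed by 0.12 on the log2 scale (adjusted p = 0.531).

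*Ptprc* (ENSMUSG00000026395.16, chr1:138062861-138175708) encodes the CD45 phosphatase of all nucleated blood cells. Its counts were 85.7, 83.9, 88.2, 131 and 141 in control and 87.6, 89.3, 119.6, 124 and 157 in cKO. In both groups replicates 4 and 5 were the highest libraries, and the groups overlapped over nearly their whole range. Its log2 fold change was 0.13 ± 0.21 (95% interval -0.33 to 0.59, adjusted p = 0.78), and -0.01 without cKO replicate 5.

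**Figure D3:**
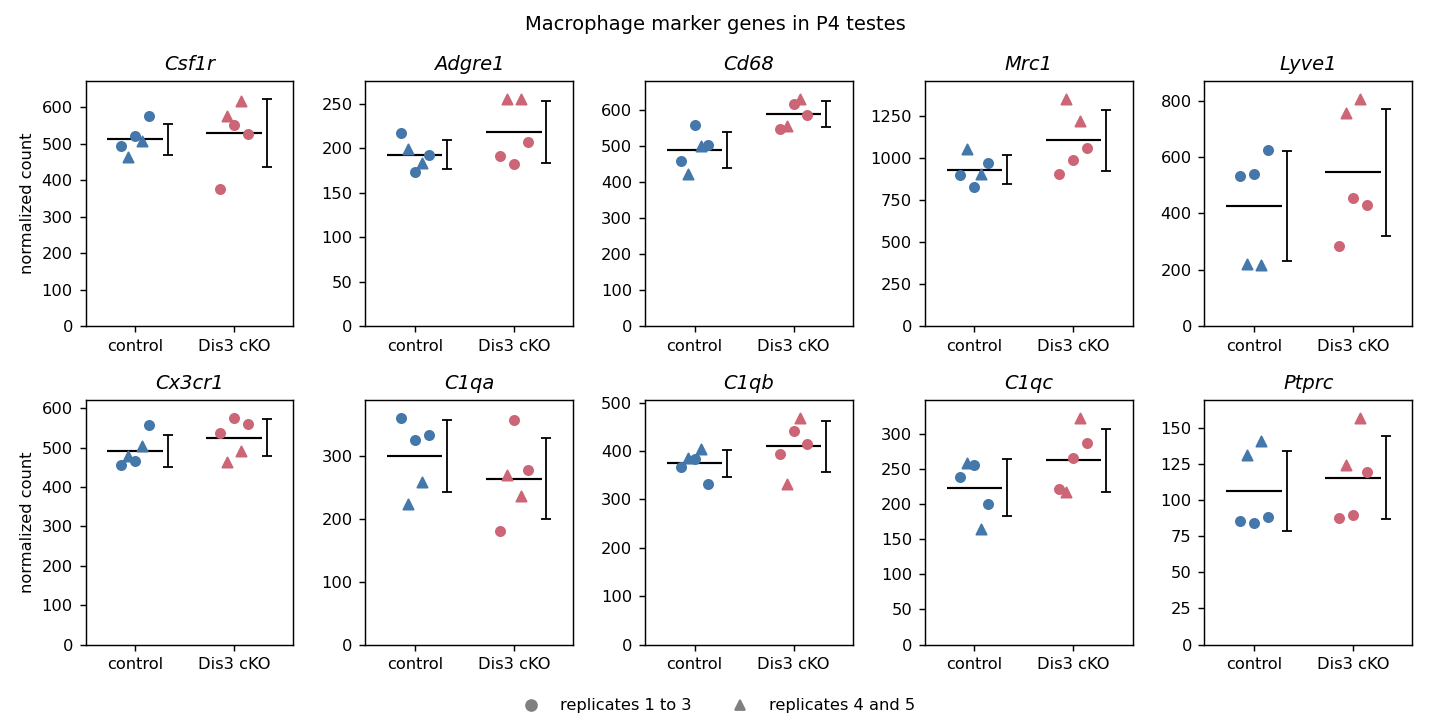
Normalized counts of the 10 macrophage markers, 1 point per library (replicates 1 to 3 round, replicates 4 and 5 triangular), with group means as lines and SD bars (n = 5). *Cd68* comes nearest to a separation of the groups, with 1 control library inside the cKO range, and *Lyve1* splits by replicate in opposite directions in the 2 groups.

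*Cd68* (ENSMUSG00000018774.13, chr11:69664213-69666153) had the lowest p of the 10. Control libraries were at 459, 558, 503, 423 and 501 normalized counts and cKO libraries at 547, 616, 587, 556 and 629.6. The groups overlapped through control replicate 2, which lay above cKO replicates 1 and 4, and every other control library was below every cKO library. The log2 fold change was 0.27 ± 0.09 (95% interval 0.07 to 0.46, adjusted p = 0.0953), with 0.20 in replicates 1 to 3 and 0.37 in replicates 4 and 5. With the cluster as a term in the fit, *Cd68* passed the threshold (log2 fold change 0.27, adjusted p = 0.0485), where 8.84% of all genes were called higher.

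*Mrc1* (ENSMUSG00000026712.3, chr2:14229392-14332057) encodes the mannose receptor CD206, which takes up glycoproteins and marks interstitial macrophages of the testis. Its counts were 896, 828, 967, 1054 and 904 in control and 904, 988, 1057, 1348 and 1218 in cKO. The cKO replicates 4 and 5 were the highest of all libraries, and cKO replicate 3 lay only just above the highest control library. The log2 fold change was 0.25 ± 0.11 (95% interval 0.01 to 0.48, adjusted p = 0.181). In replicates 4 and 5 alone it was 0.40 (adjusted p = 0.00701), in a comparison of 2 against 2 libraries where 11.7% of all genes were called higher, and in replicates 1 to 3 it was 0.13 (adjusted p = 0.439).

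The C1q genes lie side by side on the minus strand of chromosome 4, within 18675 bases: *C1qb* (ENSMUSG00000036905.8, chr4:136880129-136886187), *C1qc* (ENSMUSG00000036896.5, chr4:136889804-136893065) and *C1qa* (ENSMUSG00000036887.5, chr4:136895917-136898803). The gaps are 3616 bases from *C1qb* to *C1qc* and 2851 bases from *C1qc* to *C1qa*. Each encodes 1 chain of C1q, and the chains join in equal numbers in the protein. Their differences between the groups did not share a sign.

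*C1qa*, for the A chain, was at 361, 325, 333, 223 and 259 in control and at 180.2, 357, 277, 269 and 237 in cKO. The cKO replicate 1 was the lowest library, and the other cKO libraries were inside the control range. For *C1qa* the log2 fold change was -0.18 ± 0.18 (95% interval -0.56 to 0.20, adjusted p = 0.583), the only one of the 10 markers below 0, and it was 0.08 in replicates 4 and 5.

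*C1qb*, for the B chain, varied least among the control libraries of this trio. It was counted at 368, 384, 331, 385 and 405 in control and at 394, 442, 414, 331 and 469 in cKO. In cKO replicate 4 it equalled the lowest control library to the printed digits, while cKO replicates 2, 3 and 5 were above the control range. *C1qb* differed by 0.13 ± 0.11 on the log2 scale (95% interval -0.10 to 0.36, adjusted p = 0.511).

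*C1qc*, for the C chain, was at 238, 255, 199.9, 259 and 164 in control and at 221, 265, 287, 217 and 323 in cKO. The lowest library, control replicate 5, and the highest, cKO replicate 5, carry the same number. *C1qc* had a log2 fold change of 0.24 ± 0.15 (95% interval -0.09 to 0.57, adjusted p = 0.388).

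Within libraries the ratios of the C1q genes varied. Normalized counts of *C1qa* per count of *C1qb* were 0.98, 0.848, 1.01, 0.58 and 0.639 in control and 0.458, 0.809, 0.67, 0.813 and 0.505 in cKO libraries. Control replicates 4 and 5 had a lower ratio than the other controls, and in cKO no such split was seen. The ratio of *C1qc* to *C1qb* ran from 0.561 to 0.695 in all but 1 library, control replicate 5, where it was 0.406.

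*Lyve1* (ENSMUSG00000030787.4, chr7:110850607-110863239) encodes a hyaluronan receptor that is carried by interstitial macrophages and by lymphatic endothelium. Its normalized counts were 532, 540.1, 623, 219 and 215 in control and 285, 453, 428, 755 and 805 in cKO. Control replicates 4 and 5 were the lowest of all libraries and cKO replicates 4 and 5 the highest, with replicates 1 to 3 in between and higher in control than in cKO. Over all libraries the log2 fold change was 0.36 ± 0.33 (95% interval -0.34 to 1.06, adjusted p = 0.561), the widest interval of the 10. It was -0.54 in replicates 1 to 3 (adjusted p = 0.0546) and 1.85 in replicates 4 and 5 (adjusted p = 3.57e-09).

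The difference of these folds was tested by an interaction term of group and cluster. *Lyve1* had a value of 2.38 on the log2 scale (adjusted p = 3.27e-06), and it was the only 1 of the 10 markers to pass, where 4.59% of all tested genes passed. *Lyve1* per count of *Mrc1* was 0.594, 0.653, 0.645, 0.207 and 0.238 in control and 0.316, 0.458, 0.405, 0.56 and 0.661 in cKO libraries. This ratio was lowest in control replicates 4 and 5, and within the cKO group it was highest in replicates 4 and 5. The split was chosen after the values were seen.

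Of 5 other tested genes of lymphatic endothelium, in which *Lyve1* is also expressed, all 5 passed the same test, 4 of them with the sign of *Lyve1*. *Prox1*, the transcription factor that sets lymphatic identity, was at 206 to 238 in control replicates 1 to 3 and at 142 and 147 in control replicates 4 and 5. In cKO it was at 158 to 224 in replicates 1 to 3 and at 372 and 424 in replicates 4 and 5, an interaction of 1.66 (adjusted p = 2.60e-04). *Mmrn1*, of a secreted multimerin of lymphatic vessels, had one of 2.13 (adjusted p = 6.05e-07), *Flt4*, of the receptor VEGFR3, one of 1.30 (adjusted p = 0.00131), and *Reln*, of a secreted glycoprotein, one of 0.82 (adjusted p = 0.00905). *Reln* missed the threshold without control replicate 4 (adjusted p = 0.0619) and without cKO replicate 4 (adjusted p = 0.0612). *Pdpn*, of a membrane mucin that other testis cells also express, went the other way, with -0.51 (adjusted p = 0.00381). *Ccl21a*, which has near-identical copies in the genome, was at 0 in all libraries. Of 38 tested macrophage genes outside the 10 markers, 1 passed this test, where 4.59% of all genes did. It was *Stab1*, of a scavenger receptor that lymphatic and sinusoidal endothelium also express, with 0.78 (adjusted p = 0.0424). *Stab2*, listed with the genes for the uptake of dying cells, had the opposite sign (-1.07) and missed the threshold (adjusted p = 0.0566). Genes of other cell types passed as well, 7 of 10 of myoid cells, 5 of 12 of stromal cells, 2 of 12 of blood endothelium, 6 of 11 of germ cells, 2 of 8 of Leydig cells, 1 of 7 of erythroid cells, 1 of 12 of monocytes, neutrophils and mast cells, 1 of 12 of lymphocytes and dendritic cells and 0 of 12 of Sertoli cells. All of the passing myoid, stromal, blood endothelial and erythroid genes had the sign of *Lyve1*, as did that of monocytes, neutrophils and mast cells. All passing germ cell genes and that of lymphocytes and dendritic cells had the opposite sign, and the 2 Leydig cell genes went 1 each way. The part of these cell types in the values of *Lyve1* was not tested.

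**Figure D4:**
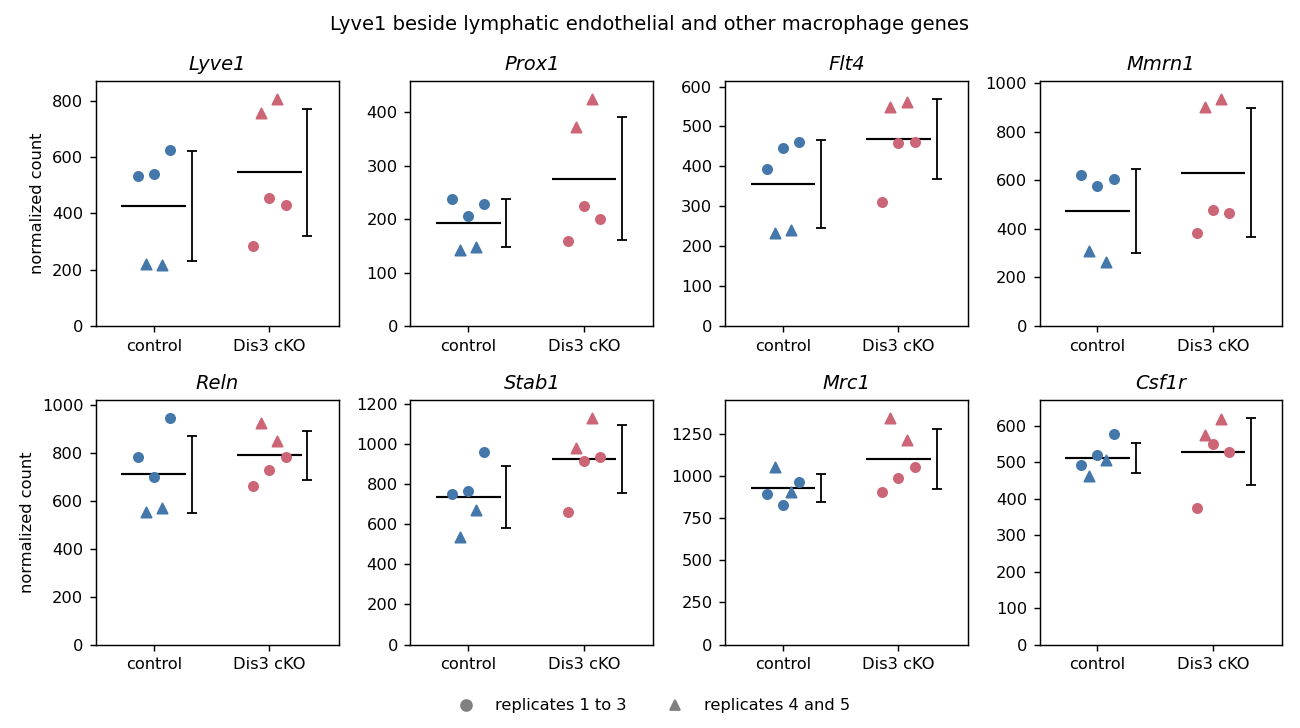
Normalized counts of *Lyve1*, of 4 lymphatic endothelial genes (*Prox1*, *Flt4*, *Mmrn1*, *Reln*) and of 3 macrophage genes (*Stab1*, *Mrc1*, *Csf1r*), 1 point per library, with group means and SD bars (n = 5). Replicates 4 and 5 (triangles) of the control group are the lowest libraries and those of the cKO group the highest for *Lyve1*, *Prox1*, *Flt4* and *Mmrn1*.

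The 10 markers varied unequally together. After removal of group means, log2 CPM of *Csf1r* had a correlation of 0.89 over the 10 libraries with the mean of the other markers, and *Lyve1* one of 0.53. *Cd68*, *C1qa*, *C1qc*, *Mrc1*, *Adgre1* and *Ptprc* lay between 0.19 and 0.34, *C1qb* was at 0.06 and *Cx3cr1* at -0.31. These values describe libraries that form clusters and share depth and makeup. Among all other genes, those most like the mean profile of the markers were *Fbxl15*, *Scarf2* and *Sec24d* (r = 0.98 each), *Col4a5* and *Fzd8* (0.97), *Islr* and *Bmp1* (0.96) and *Zbed3* (0.95). None of these 8 is a defining gene of macrophages, and none was past the threshold between the groups.

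Promoter upstream transcripts (PROMPTs), short-lived RNAs made upstream of active start sites and normally degraded by the nuclear exosome with DIS3, were counted on the strand opposite to the gene in regions of 7 of the 10 markers. Of all 12345 PROMPTs tested, 13.6% were called higher in cKO. At the macrophage markers the counts were very low, from 0 to 12.5 normalized counts in any library, and only 3 reached the minimum for the test. The PROMPT of *Ptprc* was at 3.73 in control replicate 1 and at 0 in the other controls, and at 9.87, 4.75, 0, 9.97 and 6.79 in cKO. Its mean was 0.746 in control and 6.28 in cKO, so it reached the minimum mean of 3 only through the cKO group. The log2 fold change was 2.88 ± 1.25 (adjusted p = 0.125), and 5.66 without control replicate 1 (adjusted p = 0.011). Both p-values come after that selection and are no support for a difference. A fitted fold against libraries at 0 depends on the fit and is no measure of size. The PROMPTs of *Csf1r* (0.36, adjusted p = 0.926) and *Adgre1* (-0.84, adjusted p = 0.732) missed the threshold, and a difference was not detectable at this depth. The regions of *Mrc1*, *Lyve1*, *C1qa* and *C1qb* were too low to test.

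Beyond the markers, 2 of 38 tested macrophage genes were called higher in cKO, none was called lower, and their median log2 fold change was -0.04. Of all tested genes, 4.42% were called higher. *Csf2ra*, of the receptor chain for GM-CSF, was at 1562 to 2029.7 in control and at 1958 to 2479 in cKO (log2 fold change 0.36, adjusted p = 0.0321). Per kilobase of exon it was at 958 ± 103 in control, above the 389 of *Cd68*, the highest marker, and its source among testis cells was not tested. *Siglec1*, of the sialic acid receptor CD169, was at 10.3 to 20.1 in control and at 17 to 42.5 in cKO (1.15, adjusted p = 0.0394). Both calls depend on single libraries: *Csf2ra* missed the threshold without control replicate 1 or 2 or cKO replicate 1, 4 or 5, with adjusted p up to 0.0845, and *Siglec1* kept it only without control replicate 4 or cKO replicate 5. Core myeloid genes were not past the threshold, among them *Ctss*, a lysosomal protease (-0.06, adjusted p = 0.831), *Fcer1g* (0.15, adjusted p = 0.525) and *Tyrobp* (-0.10, adjusted p = 0.832), both adaptors of immune receptors. *Timd4* and *Cd163*, markers of long-lived resident macrophages, had only 2.85 to 24.4 and 1.92 to 54.3 normalized counts.

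In the axis of CSF1, 3 of 16 tested genes, *Csf1r* among the 16, were called higher and none lower. Of all genes, 4.42% were called higher and 3.48% lower. *Nr4a1*, of a nuclear receptor of patrolling monocytes and an early response gene in many cells, was at 1229.7 to 1370.5 in control and at 1507 to 2266 in cKO. The groups did not overlap, as for 8.90% of all genes, and the log2 fold change was 0.47 ± 0.10 (adjusted p = 0.0099). *Maf*, of a transcription factor of resident macrophages, had 0.26 (adjusted p = 0.0458) and missed the threshold in every setting that left out 1 library except cKO replicate 1, with adjusted p up to 0.113. Neither gene is confined to macrophages. *Spi1* itself, the gene of PU.1, had -0.13 (adjusted p = 0.742), *Irf8* -0.22 (adjusted p = 0.298) and the growth factor *Csf1* 0.27 (adjusted p = 0.191). *Il34*, the other ligand of *Csf1r*, had 3.36 to 13.6 normalized counts and was not tested.

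None of 26 tested complement genes, the C1q chains among them, was called in either direction by edgeR or DESeq2. Of all genes, 7.90% were called by edgeR and 10.5% by DESeq2. At an unadjusted p under 0.05 in edgeR, 3 of the 26 were higher and 1 lower, where 11.8% of all genes were higher. Their median was 0.12. Without control replicate 3, 1 of the 26 was called lower. By the interaction of group and cluster 7 of the 26 passed, against 4.59% of all genes, and 4 had a fold higher in replicates 4 and 5. *Cfi*, of the protease factor I, was among those lower there (-2.54, adjusted p = 8.75e-06). Of 25 genes for the uptake of dying cells, 5 were called higher, where 4.42% of all genes were, and none lower, with a median of 0.11. *Lrp1*, of a large endocytic receptor, had 12042 to 18716 in control and 17929 to 26721 in cKO (log2 fold change 0.76, adjusted p = 0.00395), a gene that many cell types express. *Abca1* (0.27, adjusted p = 0.022), a lipid exporter, and *Dock1* (0.28, adjusted p = 0.0326), which drives engulfment, were higher too. The count of 5 fell to 1 without control replicate 1 or without control replicate 2, to 2 without control replicate 5, cKO replicate 2 or cKO replicate 5, and to 3 without control replicate 4, cKO replicate 3 or cKO replicate 4. It was 3 in replicates 1 to 3 and 11 in replicates 4 and 5, and 8 with the cluster as a term. Of 8 genes of antigen presentation by MHC class II, *H2-Aa* alone was called, and it was higher, where 4.42% of all genes were. It had 30.7 to 54.7 in control and 66.7 to 94 in cKO (0.87, adjusted p = 0.0184, and 0.0535 without cKO replicate 2).

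**Figure D5:**
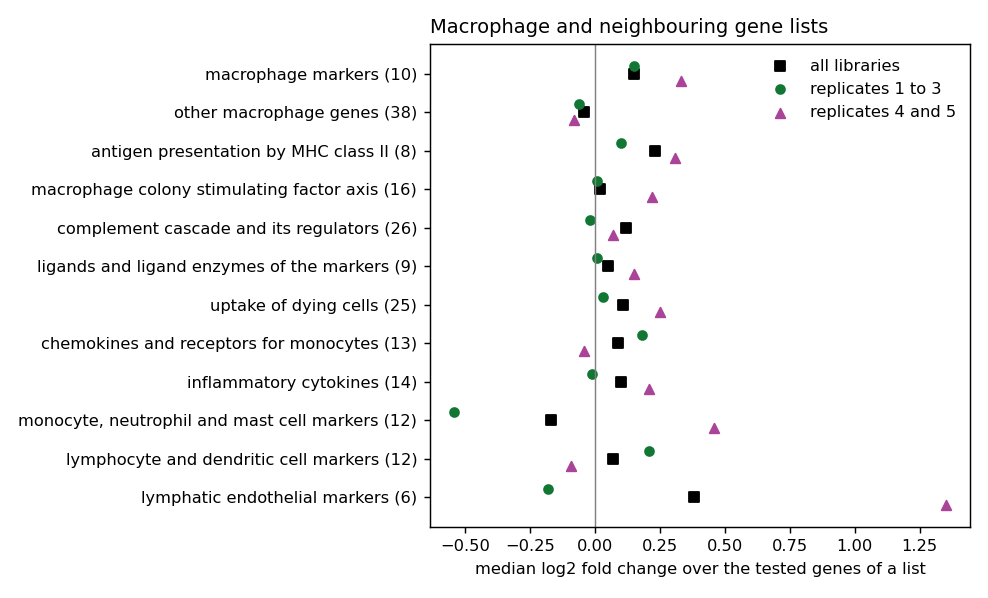
Median log2 fold change, *Dis3* cKO against control, over the tested genes of the macrophage markers and 11 related gene lists (number of genes in brackets; *Lyve1* is also in the lymphatic list, *Csf1r* in that of colony stimulating factor, *Cx3cr1* in that of chemokines and the C1q genes in that of complement): squares for all libraries, round points for replicates 1 to 3, triangles where only replicates 4 and 5 entered. The median of the macrophage markers is 0.15, and the clusters lie farthest apart for lymphatic endothelial markers (-0.18 and 1.35).

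Defining markers of other leukocytes differed in level. *Ly6g*, which marks neutrophils, was at 0 in 9 of the 10 libraries and at 6.52 in control replicate 1, and *Ncr1*, of natural killer cells, ran from 0.949 to 5.54. *Cd3e*, of T cells, ran from 24.7 to 77.2 normalized counts. Mast cell markers were higher, with *Cpa3*, of a carboxypeptidase of their granules, at 34.5 to 124. *Ccr2*, of inflammatory monocytes, was at 22.6 to 47.9 in control and at 14.4 to 28 in cKO. It missed the threshold in edgeR (log2 fold change -0.72, adjusted p = 0.158). Of 12 tested genes of monocytes, neutrophils and mast cells, *S100a9*, of a calcium-binding protein of neutrophils and monocytes, was called lower and none higher, against 3.48% of all genes called lower. It was at 114, 83, 45.3, 81.5 and 91.9 in control and at 25.9, 21.8, 24.6, 51 and 49.8 in cKO (log2 fold change -1.26, adjusted p = 0.0222). Without control replicate 1 or cKO replicate 2 or 3 it missed the threshold, with adjusted p of 0.0514 to 0.0629. None of 12 lymphocyte and dendritic cell genes was called by edgeR or DESeq2, which called 7.90% and 10.5% of all genes. At an unadjusted p under 0.05, 2 were higher and none lower, where 11.8% of all genes were higher. Summed over each list, control libraries held 489 to 856 and cKO libraries 409 to 549 normalized counts of monocyte, neutrophil and mast cell markers. Lymphocyte and dendritic cell markers summed to 2152 to 2235 in control and 2253 to 2585 in cKO. Most of that sum was *Zbtb46* alone, at 1634 to 1861 in control and 1817 to 2168 in cKO. Its groups overlapped (log2 fold change 0.14, adjusted p = 0.244 in edgeR), so the sum says little about the other genes of the list.

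None of 9 tested ligands of the markers was called by edgeR or DESeq2, which called 7.90% and 10.5% of all genes. At an unadjusted p under 0.05 in edgeR, 1 was higher and none lower, where 11.8% of all genes were higher. Of 13 tested chemokines and receptors for monocytes, 1 was called higher, a share near the 4.42% of all genes. *Cxcl12*, a chemokine of stromal cells, was at 3618 to 4183 in control and at 4413 to 5368 in cKO (log2 fold change 0.27, adjusted p = 0.0334), and missed the threshold without control replicate 1, 2 or 4 or cKO replicate 2, 4 or 5, with adjusted p up to 0.089. Of 14 tested inflammatory cytokines and their receptors, *Il10ra*, of the receptor for the anti-inflammatory IL-10, was called lower, where 3.48% of all genes were. Its counts were 276, 217, 316, 266 and 249 in control and 186, 172, 180.0, 136 and 138 in cKO. The groups did not overlap, as for 8.90% of all genes. The log2 fold change was -0.70 ± 0.14 (adjusted p = 0.00873), with -0.59 in replicates 1 to 3 and -0.90 in replicates 4 and 5. *Il10ra* is expressed by macrophages and other leukocytes, and the cell type behind its lower count was not tested.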

How the data were processed

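RNA of whole testes was sequenced in 5 control and 5 *Dis3* cKO mice. According to the submitters' processing notes and the file headers, the authors used cutadapt for trimming, HISAT2 for alignment to GRCm38.p5, and featureCounts 1.6.4 with GENCODE M18 for counting by strand. The methods of the paper name a newer mouse build and GENCODE release, and the notes and headers were followed. The deposited tables hold raw counts per gene and per PROMPT, which were used as they stand. Symbols were taken from a later GENCODE release by Ensembl ID for 50129 of 54232 genes, which held 98.96% of counts, and *Fyb*, *C5* and *Ahsp* were unmatched.

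Genes were kept by filterByExpr (min.count 10, min.total.count 15), scaled by TMM and tested with edgeR 4.0.16 (quasi-likelihood, two-sided, group as the only term) in R 4.3.3 with limma 3.58.1. P-values were adjusted by Benjamini-Hochberg over all 20043 genes, with a threshold of 0.05. PROMPTs with a mean of at least 3 counts over the libraries of both groups were tested likewise with the TMM factors of the genes. Normalized counts are counts scaled by these factors to a common depth. Correlations used log2 CPM with a prior count of 2 and genes with a mean of at least 20. DESeq2 1.42.0 and the other alternatives are given in the closing section. The code was tested on simulated data.

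The markers and gene lists were chosen with earlier results of these data known. Named genes were the 10 markers, up to 3 called genes of each list with the lowest p, the 8 genes most like the markers, markers of other leukocytes at low counts, and *Dis3*. The lymphatic genes, *Stab1*, *Stab2*, *Zbtb46*, other macrophage, CSF1 axis and complement genes without a call were named after their values were seen. Some genes that this rule names are not reported here. No pair of libraries of a group matched as closely as sampling would allow (the smallest chi-square per degree of freedom was 4.15). Same-numbered libraries had correlations of 0.0826 to 0.183, not all above 0.1, and no label ties them, so the numbers were not taken as pairs. Where p-values rest on libraries of separate mice, they measure the spread between these mice.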

Additional observations from a re-analysis of the deposited data

Results flagged for a closer look

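*Lrp1* in control replicate 3 was at 18716 normalized counts, while the other controls ranged from 12042 to 13148, a gap larger than Dixon's critical value of 0.71 for 5 samples allows. It was the only such library among 62 groups examined, where chance gives about 3.1 (1 in 20).

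The fold between *Dis3* cKO and control differed between replicates 4 and 5 and replicates 1 to 3, by the interaction term in edgeR, for *Lyve1* (2.38 on the log2 scale), *Mmrn1* (2.13), *Prox1* (1.66), *Flt4* (1.30) and *Reln* (0.82), all higher in replicates 4 and 5, and for *Pdpn* (-0.51), lower there. The cause of the split was not tested.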

How the results depend on the processing

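The count of markers called higher was 0 and became 1 with the replicate number as a block (*Cd68*, adjusted p = 0.0453), 1 with the cluster of libraries as a term (*Cd68*) and 2 in replicates 4 and 5 alone (*Lyve1* and *Mrc1*). It was 0 to 0 with single libraries left out, and no setting called a marker lower. Of all genes, 885 were higher and 698 lower. With the replicate block these were 1489 and 1337, with the cluster term 1772 and 1669, and in replicates 4 and 5 alone 2361 and 2360. Leaving out single libraries gave 516 to 1173 higher and 366 to 806 lower genes. The higher count fell most without control replicate 1 (521), control replicate 2 (516) or cKO replicate 2 (557), and the lower count without control replicates 1, 2, 4 or 5 (382, 371, 398 and 399) or cKO replicates 2 or 5 (429 and 366). The sign turned in replicates 1 to 3 for *Csf1r* (-0.13), *Adgre1* (-0.01), *Lyve1* (-0.54) and the PROMPT of *Csf1r* (-0.17), in replicates 4 and 5 for *Cx3cr1* (-0.03) and *C1qa* (0.08), and without cKO replicate 5 for *Csf1r* (-0.01) and *Ptprc* (-0.01). With single libraries left out, *Csf1r* ranged from -0.01 to 0.15 and *Ptprc* from -0.01 to 0.25. In these settings fewer libraries were fitted, and the cause of the other changes was not tested. Of 170 marker values under alternatives, 159 kept sign and side of the threshold, 4 newly passed and 7 turned. The difference of the *Lyve1* fold between the clusters kept its call in all 12 alternatives (2.21 to 2.51 with single libraries left out, the lowest without cKO replicate 1). With the replicate block, 8 genes for the uptake of dying cells were called higher in place of 5. Own-number libraries correlated best for 3 of 5 numbers, a hint from the data only. Settings on the cluster were added after the data were seen.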
